A study of Homo sapiens with 8 samples.

Results

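The transcripts described here encode the enzymes of purine and pyrimidine nucleotide synthesis, with the ribonucleotide-to-deoxyribonucleotide steps, nucleotide salvage and the main nucleoside transporter. The set holds 33 genes chosen by name, all 33 of them found among the 58735 Ensembl genes of each count file. RNA sequencing was done on 22Rv1 cells, an established human castration-resistant prostate cancer line, in 2 groups of 4 libraries. Control cells received DMSO, the vehicle, and treated cells received PCC0208017, a compound the series text calls an inhibitor of MARK3, a serine/threonine kinase of the microtubule affinity-regulating family (libraries labelled MARK3i). The sources used here give neither the dose nor the duration. Effects of MARK3 inhibition and other effects of the compound cannot be told apart. Since the labels do not say whether replicates were separate cultures, p-values measure only the spread between these libraries, which may be technical.

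Cells make purines by building the ring step by step on phosphoribosyl pyrophosphate (PRPP), ending in IMP, from which AMP and GMP branch. Pyrimidines are made in the reverse order: the ring is closed first and PRPP is added later to give UMP, which is turned into CTP. Ribonucleotide reductase converts ribonucleotides to the deoxy forms needed for DNA, thymidylate is made by a folate-dependent step, and salvage enzymes recycle bases and nucleosides taken up from outside. Proliferating cells lean on these routes, and their transcripts are often higher in dividing than in resting cells.

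Total counts per library ran from 12672817 to 21271127, with the highest in inhibitor replicate 2, and the 33 genes took 0.422% to 0.427% of the counts of controls and 0.298% to 0.309% of those of treated libraries. The lowest count of a member in any library was 43. Controls 1 and 2 resembled each other, as did controls 3 and 4 (chi-square per degree of freedom over genes 1.74 and 1.71, against 3.48 to 4.68 across those pairs), and with either pair alone as the control group 26 of the 33 genes were called lower and 1 higher. The 7 luminal prostate epithelial markers examined, among them KLK3 and the keratins KRT8 and KRT18, summed to 2292 to 2320.5 CPM in controls (each library's counts rescaled to the same total, here without TMM factors) and 1614 to 1678 in treated libraries. The 3 leukocyte and 2 endothelial markers summed to at most 0.448 and 0.0762 CPM in any library, with CD3E and PECAM1 at 0 counts in all 8. With TMM factors, only COL1A1 of 3 fibroblast markers was above 1 CPM. On that scale it was at 11.3 ± 2.20 in controls and 18.0 ± 3.04 in treated libraries (mean ± SD, n = 4). The part of these markers in the results below was not tested. In RNA from whole cultures, fewer cells in a given state and less RNA per cell cannot be told apart.

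Nucleotide synthesis transcripts were lower in treated cells across nearly all branches. Of the 33 genes, all of which passed the filter on low counts, 27 fell, 1 rose and 5 did not pass the test, where a call is an adjusted p under 0.05 in the quasi-likelihood test of edgeR, adjusted by Benjamini-Hochberg across the 16452 genes tested. Of all tested genes 28.3% fell and 29.8% rose, 58% in either direction. The median log2 fold change, treated minus control, was −0.55 for the 33 genes and 0.02 for all tested genes. In 28 genes all 4 treated libraries lay below all 4 controls, against 25.1% of all tested genes, and in 1 all lay above, against 25.8%. Falls that were called and reached 1 log2 unit or more were found in 12 of the 33, against 6.09% of all tested genes. With total counts in place of TMM scaling the median of all genes moved to 0.13 and that of the 33 to −0.44, with 26 lower and 2 higher. Levels below are CPM on the TMM scale, log2 fold changes are treated minus control ± SE with n = 4 libraries per group, and every adjusted p for a gene is from that edgeR test.

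**Figure D1:**
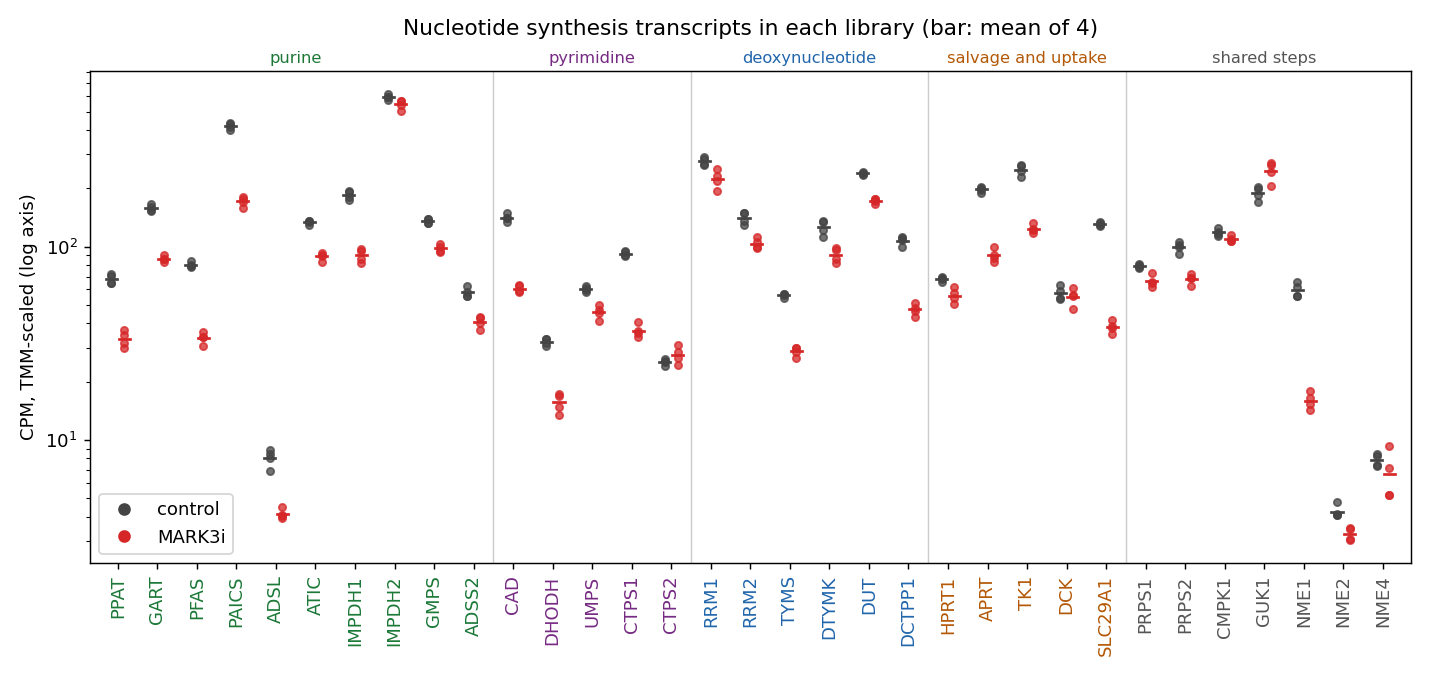
Level of each of the 33 transcripts in each library (points, CPM on the TMM scale, logarithmic axis; horizontal bars are means of 4 libraries), ordered by branch, with controls in grey and MARK3i in red. Treated points lie below all control points in 28 genes, above them in GUK1, and among them in CTPS2, DCK, CMPK1 and NME4.

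Summed over the genes of a branch, the level of salvage and uptake transcripts was 677, 706, 711 and 725 CPM in controls 1 to 4 and 377, 345, 356 and 374 CPM in treated libraries 1 to 4, with a mean 48.5% lower. The pyrimidine sum was 46.9% lower, the purine sum 35.4% lower and the deoxynucleotide sum 29.5% lower. The steps shared by the branches, which are PRPP synthesis and the phosphorylation of mono- and diphosphates, summed to 7.77% less. These sums weigh abundant genes most and were not tested. The order of the branches was therefore a description of these libraries.

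**Figure D2:**
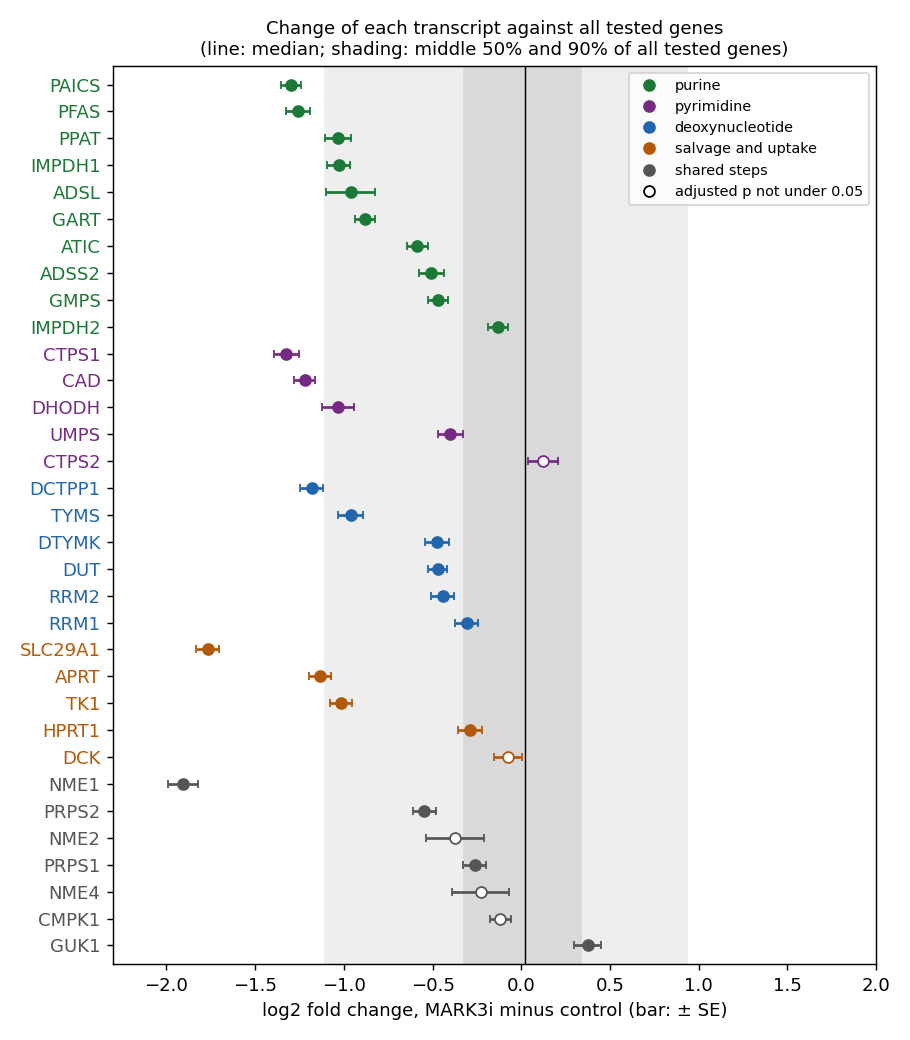
Log2 fold change (MARK3i minus control, bars ± SE, n = 4 per group) of the 33 transcripts, coloured by branch, with open symbols where the adjusted p was not under 0.05. The vertical line is the median of all tested genes (0.02) and the shading covers their middle 50% and 90%. NME1 (−1.91) and SLC29A1 (−1.77) lie farthest to the left and GUK1 (0.37) farthest to the right.

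All 10 transcripts of purine synthesis fell, against 28.3% of all tested genes, with a median log2 fold change of −0.92. The call of IMPDH2 depended on the settings, as given below. PPAT encodes the amidotransferase that commits PRPP to purine synthesis (ENSG00000128059, chr4:56393362-56435615, minus strand, hg38). Its level was 71.7, 70.3, 65.0 and 65.1 CPM in control replicates 1 to 4 and 35.0, 29.9, 36.9 and 31.5 CPM in inhibitor replicates 1 to 4. The groups were well separated, with a 2.05-fold lower level (−1.03 ± 0.08, adjusted p = 1.52e-11). PAICS, a fused carboxylase and synthetase of the middle of the pathway (ENSG00000128050, chr4:56435741-56464578, plus strand), stood at 437, 434, 414 and 401 CPM in controls and at 181, 158, 177 and 170.2 CPM after treatment. It was the purine gene with the largest fall, 2.46-fold (−1.30 ± 0.06, adjusted p = 1.17e-15). PPAT and PAICS lie head to head on chromosome 4, and in the RefSeq windows (GRCh38.p14) their starts at 56435615 and 56435752 are separated by 136 bases. That stretch is shown because it lies between the starts of a pair of genes that both fell, and it is written on the plus strand, from the PPAT side to the PAICS side.
PPAT-PAICS gap chr4:56435616-56435751: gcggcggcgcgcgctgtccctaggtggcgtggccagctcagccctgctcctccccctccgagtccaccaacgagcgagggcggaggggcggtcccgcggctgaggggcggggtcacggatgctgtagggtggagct
Both transcripts fell, but not to the same extent. The log2 ratio of PPAT to PAICS counts was −2.63 ± 0.03 in controls and −2.37 ± 0.08 in treated libraries (mean ± SD), a shift of 0.26 (two-sided exact permutation p = 0.0286, the smallest that 4 against 4 allows; 0.0322 after adjustment over the 9 gene pairs compared below).

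Transcripts of the other steps to IMP fell by 1.5-fold to 2.40-fold. PFAS, which makes the amidine intermediate (ENSG00000178921, chr17:8247618-8270491, plus strand), was at 78.9, 78.4, 80.4 and 84.7 CPM in controls and 30.7, 33.9, 34.0 and 36.0 CPM in treated libraries (−1.26 ± 0.07, adjusted p = 5.53e-14). GART, a protein with 3 activities of the pathway (ENSG00000159131, chr21:33503931-33543491, minus strand), was at 166, 161, 156 and 153 CPM and 90.3, 86.6, 86.0 and 82.8 CPM (−0.88 ± 0.06, adjusted p = 2.19e-12). All treated libraries lay below all controls in both genes. The stretch before the more upstream RefSeq start of GART is shown for the 3 CCAAT words it holds (a further one lies before another start), in capitals on either strand, written along the minus strand on which GART lies.
GART upstream chr21:33542933-33543022: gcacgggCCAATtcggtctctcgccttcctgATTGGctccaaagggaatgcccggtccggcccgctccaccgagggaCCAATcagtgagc
ATIC, which carries out the last pair of steps to IMP, fell less, with 134 ± 2.59 CPM in controls against 89.0 ± 3.96 CPM after treatment (mean ± SD; −0.59 ± 0.06, adjusted p = 4.00e-09). ADSL, an enzyme used both on the way to IMP and from IMP to AMP, was at 8.46, 6.89, 8.86 and 8.04 CPM in controls and 4.04, 4.09, 3.92 and 4.49 CPM in treated libraries (−0.96 ± 0.14, adjusted p = 1.88e-06). Those ADSL levels rest on 56 to 108 counts per library, and its exons overlap those of ENSG00000284431 on the same strand over 1344 bases, so that reads there cannot be assigned to either gene.

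Beyond IMP, the branch to GMP was split between its isozymes. IMPDH1 and IMPDH2 encode the IMP dehydrogenases, the rate-limiting enzymes of guanine nucleotide synthesis, and IMPDH2 is the form usually linked to proliferation. IMPDH1 (ENSG00000106348, chr7:128392277-128409986, minus strand) was at 174, 179.8, 192 and 193 CPM in controls and at 82.3, 97.5, 86.4 and 95.3 CPM in treated libraries. It fell 2.04-fold (−1.03 ± 0.06, adjusted p = 7.43e-13). IMPDH2 (ENSG00000178035, chr3:49024325-49029447, minus strand), the purine transcript with the highest level per length, was at 574, 596, 619.9 and 598 CPM in controls and 569, 542, 501 and 567 CPM after treatment. The groups did not overlap but nearly touched, and the change was small (−0.13 ± 0.06, adjusted p = 0.044). This call ended with total counts (adjusted p = 0.631), upper-quartile scaling, no filter and GC offsets, and when any of control replicates 2 to 4 or inhibitor replicates 2 and 3 was left out (adjusted p of 0.0772 to 0.125). GMPS, which aminates XMP to GMP, was at 136 ± 3.95 CPM in controls against 98.2 ± 4.59 CPM after treatment (mean ± SD; −0.47 ± 0.06, adjusted p = 1.86e-07). ADSS2, which starts the branch to AMP, was at 58.0 ± 3.21 CPM in controls against 40.9 ± 2.78 CPM after treatment (mean ± SD; −0.51 ± 0.07, adjusted p = 1.40e-06). Both falls lay between those of the IMP dehydrogenases.

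Of the 5 pyrimidine genes, 4 fell, against 28.3% of all tested genes, and CTPS2 did not pass the test. CAD, the protein with the first 3 activities of the pathway (ENSG00000084774, chr2:27217369-27243943, plus strand), was at 149, 140.1, 134 and 141 CPM in controls and 58.8, 63.2, 62.2 and 57.9 CPM in treated libraries. The fall was 2.33-fold (−1.22 ± 0.06, adjusted p = 1.08e-14). DHODH, the mitochondrial enzyme that oxidises dihydroorotate (ENSG00000102967, chr16:72008588-72027664, plus strand), was at 33.1, 33.1, 31.6 and 30.5 CPM and 13.5, 17.2, 14.9 and 16.9 CPM (−1.03 ± 0.09, adjusted p = 3.26e-10). UMPS, which adds PRPP and makes UMP, fell least among the 4, at 60.4 ± 2.13 CPM in controls against 45.9 ± 3.62 CPM after treatment (mean ± SD; −0.40 ± 0.07, adjusted p = 2.96e-05). CTPS1 and CTPS2 encode the CTP synthetases. CTPS1 (ENSG00000171793, chr1:40979300-41012565, plus strand) was at 90.2, 94.6, 88.9 and 94.3 CPM in controls and 40.6, 36.7, 34.0 and 35.8 CPM in treated libraries, a 2.50-fold fall (−1.32 ± 0.07, adjusted p = 1.76e-14). CTPS2, on the X chromosome, was at 26.1, 24.2, 25.3 and 25.7 CPM and 28.6, 24.3, 30.9 and 26.6 CPM, with overlapping groups (0.12 ± 0.08, 95% interval −0.05 to 0.29, adjusted p = 0.23). With total counts CTPS2 was called higher (0.23, adjusted p = 0.0275).

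All 6 deoxynucleotide genes fell, against 28.3% of all tested genes, with a median log2 fold change of −0.47. RRM1 and RRM2 encode the large and small subunits of ribonucleotide reductase, and RRM2 is known to be made mainly in S phase. RRM2 (ENSG00000171848, chr2:10120698-10211725, plus strand) was at 149.7, 148, 129 and 136 CPM in controls and 112, 98.1, 105 and 99.3 CPM in treated libraries (−0.44 ± 0.06, adjusted p = 1.72e-06). Controls 1 and 2 were above controls 3 and 4, and all treated libraries were below both pairs. RRM1 was at 286, 289.7, 264 and 267 CPM and 252, 194, 231 and 218 CPM (−0.31 ± 0.07, adjusted p = 0.000326), with inhibitor replicate 1 close to the lowest control. The log2 ratio of RRM2 to RRM1 was −0.97 ± 0.04 in controls and −1.11 ± 0.08 in treated libraries (two-sided exact permutation p = 0.0571, adjusted 0.0571, n = 4 per group). This difference of −0.13 did not pass the threshold. Without inhibitor replicate 2 the difference was −0.17 with an exact adjusted p of 0.0286. RRM2 has more than 1 RefSeq start, and its windows hold 4 CCAAT words. The 3 of them closest together are shown with 10 bases on each side, since the bases after each are alike, and the fourth, at chr2:10122319-10122323 before another start, has a different flank and is not shown.
RRM2 chr2:10122606-10122630: caaggcgcagCCAATgggaagggtc
RRM2 chr2:10122636-10122660: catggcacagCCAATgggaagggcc
RRM2 chr2:10122663-10122687: ggcaccaaagCCAATgggaagggcc

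Within the thymidylate branch, TYMS, the thymidylate synthase (ENSG00000176890, chr18:657653-673578, plus strand), was at 54.4, 56.6, 55.8 and 56.6 CPM in controls and 28.3, 30.0, 29.9 and 26.4 CPM in treated libraries. It was 1.95-fold lower (−0.96 ± 0.07, adjusted p = 1.76e-11). Of its merged exon length 39.9% overlaps ENOSF1 on the opposite strand, and the sources used here do not state the strand setting of the counting. DTYMK, which phosphorylates dTMP, was at 126 ± 10.7 CPM in controls against 90.6 ± 7.84 CPM after treatment (mean ± SD; −0.47 ± 0.07, adjusted p = 2.86e-06). DUT, which removes dUTP and supplies dUMP, was at 239 ± 4.17 CPM in controls against 173 ± 4.79 CPM after treatment (mean ± SD; −0.47 ± 0.05, adjusted p = 3.33e-08). Both fell less than TYMS, a difference that was not tested. DCTPP1, a pyrophosphatase that clears dCTP and its modified forms (ENSG00000179958, chr16:30423615-30430030, minus strand), was at 99.5, 108, 112 and 110.2 CPM and 48.3, 46.6, 43.1 and 51.2 CPM, the largest fall of this branch (−1.18 ± 0.07, adjusted p = 1.24e-13). DCTPP1 overlaps ZNF771 on the opposite strand over 41.2% of its exons. The stretch before the TYMS start is shown for an E2F word, in capitals and read on the reverse strand, and the 2 CCAAT words of DTYMK are shown with 10 bases on each side, along its minus strand.
TYMS upstream chr18:657593-657632: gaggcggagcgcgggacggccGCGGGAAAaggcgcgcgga
DTYMK chr2:241686893-241686917: ccggccccggCCAATcccttcgaat
DTYMK chr2:241686825-241686849: ttgacgccggCCAATgggagctccg

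Salvage and uptake genes divided into large falls and little change. SLC29A1 encodes ENT1, the equilibrative transporter that carries nucleosides and many nucleoside drugs into cells (ENSG00000112759, chr6:44219553-44234142, plus strand). Its level was 130.1, 127, 132 and 134 CPM in controls and 35.4, 38.9, 41.5 and 37.9 CPM in treated libraries. The groups lay far apart, with a 3.41-fold fall (−1.77 ± 0.06, adjusted p = 2.55e-17), which was rank 248 from the largest fall among all tested genes. TK1, the cytosolic thymidine kinase of dividing cells (ENSG00000167900, chr17:78174091-78187233, minus strand), was at 228, 247, 262 and 265 CPM and 132, 118, 122 and 124 CPM (−1.02 ± 0.06, adjusted p = 2.79e-13). APRT, which recycles adenine, was at 190.5, 199.9, 197 and 204 CPM and 87.4, 90.5, 83.4 and 99.2 CPM (−1.13 ± 0.06, adjusted p = 3.95e-14). HPRT1, which recycles hypoxanthine and guanine, fell 1.22-fold, with 68.0 ± 1.70 CPM in controls against 55.8 ± 4.79 CPM after treatment (mean ± SD; −0.29 ± 0.07, adjusted p = 0.000878). The difference between these purine salvage genes was not tested. DCK, the deoxycytidine kinase, was at 58.7, 63.4, 54.1 and 53.8 CPM in controls and 60.7, 47.3, 55.8 and 55.2 CPM in treated libraries, which overlapped (−0.07 ± 0.08, 95% interval −0.23 to 0.09, adjusted p = 0.425). Its sign turned with total counts (0.03), and with GC offsets it was called lower (−0.22, adjusted p = 0.0026).

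Of the 7 genes of shared steps, 3 fell, 1 rose and 3 did not pass, with a median log2 fold change of −0.26. Of all tested genes 28.3% fell and 29.8% rose, and the counts of this small branch were not tested against these shares. NME1 encodes a nucleoside diphosphate kinase, which makes triphosphates from diphosphates (ENSG00000239672, chr17:51153559-51162428, plus strand). It was at 55.6, 55.8, 65.4 and 61.8 CPM in controls and 17.9, 14.2, 15.3 and 16.4 CPM in treated libraries. NME1 had the largest fall of the 33 genes (3.75-fold, −1.91 ± 0.08, adjusted p = 1.22e-15), rank 188 among all tested genes. NME2, the neighbouring paralog, was at only 4.07, 4.12, 4.76 and 4.06 CPM and 3.07, 3.51, 3.01 and 3.46 CPM, from 43 to 78 counts per library (−0.37 ± 0.16, adjusted p = 0.054). The libraries did not overlap, and NME2 was called lower with RLE scaling (adjusted p = 0.0458) and with the stricter filter (adjusted p = 0.0497). NME1 and NME2 are close in sequence, and their exons are shared with the readthrough gene NME1-NME2, so the split of reads among the 3 is uncertain. Their summed counts gave −1.73 (adjusted p = 2.76e-15).

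NME4, the mitochondrial family member, was at 7.44, 7.29, 8.28 and 8.43 CPM in controls and 5.16, 7.10, 5.18 and 9.27 CPM in treated libraries, with inhibitor replicate 4 above all controls (−0.23 ± 0.16, adjusted p = 0.224). Without that library the change was −0.41 (adjusted p = 0.0256), and 15.6% of its exons overlap DECR2 on the same strand. GUK1, the guanylate kinase (ENSG00000143774, chr1:228139962-228148984, plus strand), was the member that rose, from 170.1, 184, 199.8 and 204 CPM in controls to 272, 264, 205 and 242 CPM in treated libraries (1.30-fold, 0.37 ± 0.08, adjusted p = 0.000244). Inhibitor replicate 3 was barely above the highest control, and the rise was 0.46 against controls 1 and 2 and 0.28 against controls 3 and 4. CMPK1, which phosphorylates UMP and CMP, missed the threshold at 119 ± 4.79 CPM in controls against 109 ± 3.60 CPM after treatment (mean ± SD; −0.12 ± 0.06, 95% interval −0.24 to 0.000467, adjusted p = 0.082) and was called lower with GC offsets (−0.26) and without inhibitor replicate 1 (−0.16). PRPS1 and PRPS2 encode PRPP synthetases, which supply the sugar phosphate of all branches, and both fell. PRPS1 was at 79.5 ± 1.62 CPM in controls against 66.4 ± 4.77 CPM after treatment (mean ± SD; −0.26 ± 0.06, adjusted p = 0.0012). PRPS2 was at 99.5 ± 6.02 CPM in controls against 68.2 ± 3.97 CPM after treatment (mean ± SD; −0.55 ± 0.07, adjusted p = 9.60e-08).

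Several members have a partner with the same activity, and within most pairs compared the balance moved. The pairs compared also include PPAT with PAICS, which act at different steps, and RRM2 with RRM1, the small and large subunits of ribonucleotide reductase. For 9 gene pairs the log2 ratio of raw counts within each library, which does not depend on library scaling, was compared between the groups (two-sided exact permutation test, n = 4 per group, Benjamini-Hochberg over the 9 pairs). In 8 pairs the groups were fully separated, each with an exact permutation p = 0.0286, the smallest possible here, and an adjusted p of 0.0322. How often pairs of other genes separate was not examined, and the pairs were chosen with earlier results of these data known. Of single tested genes, 25.1% had all treated libraries below all controls and 25.8% had all above. CTPS1 to CTPS2 went from 1.79, 1.97, 1.82 and 1.88 in controls 1 to 4 to 0.51, 0.59, 0.14 and 0.43 in treated libraries 1 to 4, a difference of −1.45. The CTP synthetase transcripts thus came closer to each other. IMPDH1 to IMPDH2 went from −1.72, −1.73, −1.69 and −1.63 to −2.79, −2.47, −2.54 and −2.57, a difference of −0.90, so the IMP dehydrogenase transcripts moved further apart. For NME1 to NME2 the difference was −1.52, with the read assignment limits given above. PRPS1 to PRPS2 shifted by 0.28, and stood at −0.32 ± 0.08 in controls and −0.04 ± 0.05 in treated libraries (mean ± SD).

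Partners outside the set showed the same kind of shift. RRM2B encodes a small subunit of ribonucleotide reductase that is made outside S phase and is a known p53 target. It was at 59.5, 58.1, 45.3 and 46.0 CPM in controls and 91.0, 80.1, 88.3 and 82.5 CPM in treated libraries, a rise (0.71 ± 0.08, adjusted p = 7.88e-08), with controls 1 and 2 above controls 3 and 4. The log2 ratio of RRM2 to RRM2B went from 1.33, 1.35, 1.51 and 1.57 in controls to 0.30, 0.29, 0.25 and 0.27 in treated libraries. That is a difference of −1.16, with little spread among the treated libraries. TK2, the mitochondrial thymidine kinase, did not pass the test (0.02 ± 0.08, 95% interval −0.14 to 0.18, adjusted p = 0.862), and TK1 to TK2 shifted by −1.03. SLC29A2, the second equilibrative transporter ENT2, fell nearly as far as SLC29A1 (−1.50 ± 0.07, adjusted p = 9.29e-15), and their ratio shifted by −0.26. The adjusted p of that pair was 0.0643 without control replicate 1 or control replicate 4.

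**Figure D3:**
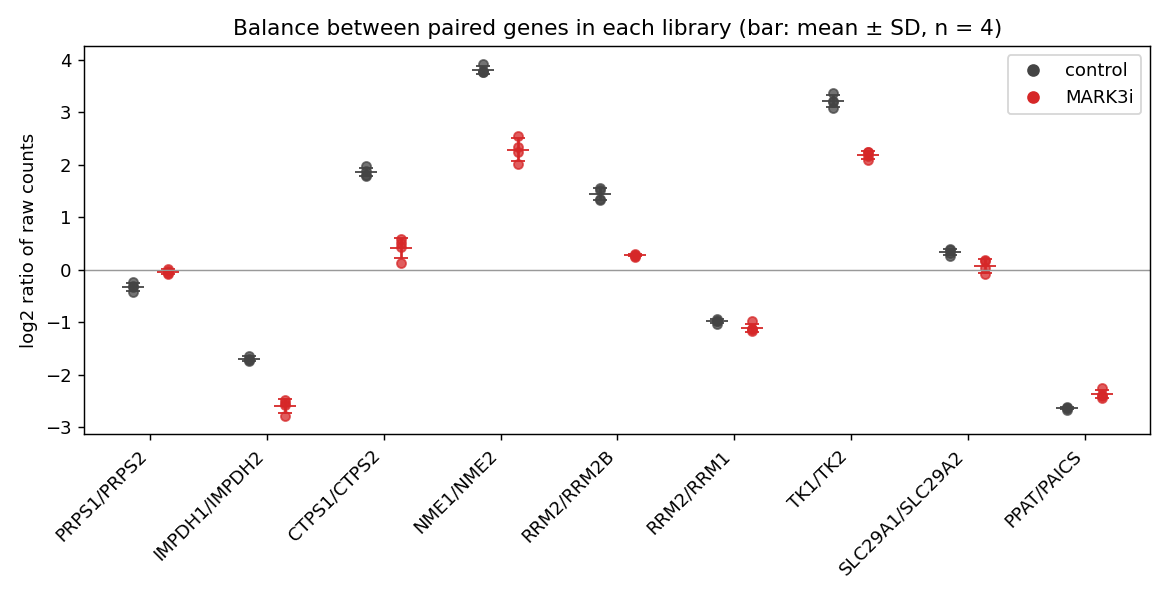
Log2 ratio of raw counts of 9 gene pairs in each library (points), with mean ± SD (bars, n = 4) for controls in grey and MARK3i in red. The groups separate in 8 pairs, with the widest gaps for NME1/NME2 (−1.52) and CTPS1/CTPS2 (−1.45), and overlap for RRM2/RRM1.

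Per kilobase of merged exons, TK1 was the most abundant of the 33 transcripts in controls at 136 CPM per kb, followed by IMPDH2 at 117 and APRT at 110.3. In treated cells IMPDH2 led at 106 CPM per kb, ahead of TK1 at 67.2. Among the transcripts of the pathway to IMP, PAICS was the most abundant per length in controls at 56.1 and ATIC was next at 35.3, while in treated cells these stood at 22.8 and 23.5. PPAT, which encodes the committing enzyme, stood at 12.5 in controls and 6.13 in treated cells. The lowest were ADSL at 0.666, NME2 at 1.70 and NME4 at 2.14 CPM per kb in controls, which share exons with other genes on the same strand. Such sharing is not limited to these genes. It covers 18.7% of the annotated exons of NME1. For IMPDH2 it covers 32.8%, but the overlapping gene there, ENSG00000290315, was not among the genes counted. The IMPDH2 overlap is therefore one of annotation, and these counts show no sharing of its reads with that gene. Merged exon length counts every annotated exon and can exceed the length of the main transcript, so these levels are rough.

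Promoter windows of 300 bases, from 250 before to 50 after a RefSeq start (GRCh38.p14), were found for 31 of the 33 genes, in 48 windows. They were searched on both strands for the E-box CACGTG, a word read by several helix-loop-helix factors including MYC with MAX, for CCAAT, the word of the factor NF-Y, and for TTTGGCGC and TTTCCCGC, words of E2F factors. No word contains another. The E-box occurred in 8 of the 31 genes (25.8%), against 12.5% of the 11525 tested genes with a window and 8.77% of all genes in the table. Over all tested genes the median log2 fold change was −0.06 with the word and 0.05 without it. CCAAT occurred in 10 (32.3%), against 43.1% of tested genes, and an E2F word in 5 (16.1%), against 4.4%. A gene with more windows has more chances to hold a word, and the whole table has 35116 windows for 27305 genes. By window the E-box was in 8 of 48, against 7.26% of all windows in the table. CCAAT was in 13 of 48, against 34.61%, and an E2F word in 5 of 48, against 2.27%. By gene, the E-box was shared by members with very different changes, from NME1 (−1.91) and SLC29A1 (−1.77) to DCK (−0.07). Of the 8 genes with it 7 fell, and of the 23 without it 18 fell, with median log2 fold changes of −1.11 and −0.47. Over all tested genes with a window 35.6% of those with the E-box and 28.2% of those without it fell. For E2F words these shares were 39.9% and 28.6%, with medians of −0.09 and 0.04, and for CCAAT 28.8% and 29.3%, with medians of 0.04 and 0.03. Among members, 4 of 5 with an E2F word and 21 of 26 without fell, with medians of −0.548 and −0.546. With CCAAT 9 of 10 fell and without it 16 of 21, with medians of −0.68 and −0.55. None of these differences was tested. A word in a window is a description and not a binding site. The E-boxes are shown in capitals with up to 10 bases on each side along each gene's strand for every member that holds the word. PPAT and PAICS share the same E-box at chr4:56435792-56435797, on the PAICS side of the gap shown above, and it is written once, along the PPAT strand.
NME1 chr17:51153583-51153608: tgctgcgaacCACGTGggtcccgggc
SLC29A1 chr6:44219365-44219385: cagtgCACGTGctcccaggtc
PPAT chr4:56435782-56435807: cggagatttcCACGTGcagcaaatac
DCTPP1 chr16:30429794-30429819: agggttcctcCACGTGgtcgggaagc
DHODH chr16:72008575-72008600: cgctactgcgCACGTGcacccaacca
ATIC chr2:215312003-215312028: gccggcgggcCACGTGataagcccgg
ATIC chr2:215312078-215312103: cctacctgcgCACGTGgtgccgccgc
DCK chr4:70993523-70993548: ccccggccttCACGTGacctggcgtg

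Further genes of nucleotide metabolism changed in both directions. Of 62 further genes, 55 were tested, 30 fell and 9 rose, while 16 missed the threshold. Of all tested genes 28.3% fell and 29.8% rose, and the shares within the smaller groups below are given as counts with no test against these. The median log2 fold change of the 55 genes was −0.33. With total counts 27 fell and 15 rose. All 7 enzymes that supply folate-bound carbon to the purine ring and thymidylate fell, among them the mitochondrial synthetase MTHFD1L (−1.99 ± 0.09, adjusted p = 8.73e-16), MTHFD1 (−0.85 ± 0.06) and SHMT2 (−0.56 ± 0.06). Among deoxynucleotide genes DNPH1, a hydrolase that removes deoxynucleoside monophosphates, was at 164, 166, 177 and 184 CPM in controls and 50.7, 48.5, 47.5 and 51.9 CPM in treated libraries (−1.80 ± 0.06, adjusted p = 1.23e-17). DCTD, the dCMP deaminase (−0.38 ± 0.07), and NUDT1, which clears oxidised nucleotides (−0.19 ± 0.07, adjusted p = 0.0236), fell less. The NUDT1 groups overlapped, with inhibitor replicate 1 at 68.7 CPM above controls 1 and 2 at 66.3 and 67.6 CPM. By contrast SAMHD1, which breaks down deoxynucleoside triphosphates, rose from 37.5 ± 2.05 to 57.9 ± 3.20 CPM (0.63 ± 0.07, adjusted p = 4.30e-08). Of the 9 tested deoxynucleotide and mitochondrial genes outside the set, 3 fell and 2, SAMHD1 and RRM2B, rose, shares near those of all tested genes.

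In salvage, 6 of 12 tested genes fell and 2 rose. The uridine-cytidine kinase UCK2 (−1.13 ± 0.06, adjusted p = 7.39e-15), the GMP reductase GMPR (−1.32 ± 0.11) and the purine nucleoside phosphorylase PNP (−0.91 ± 0.07) fell. The deaminase genes ADA (0.64 ± 0.18, adjusted p = 0.00367) and AMPD3 (0.72 ± 0.21, adjusted p = 0.00488) rose, at no more than 4.32 CPM in any library. The AMPD3 groups overlapped slightly, with inhibitor replicate 4 at 2.489 CPM just below control 4 at 2.497 CPM. Among other nucleotide kinases and PRPP synthetase-associated proteins, 6 of 14 fell, including the mitochondrial adenylate kinase gene AK4 (−1.21 ± 0.07), and 3 rose, including NME7 (0.69 ± 0.09). Of 10 tested breakdown genes, 6 fell, among them the ecto-5′-nucleotidase gene NT5E (−1.28 ± 0.13) and the thymidine phosphorylase gene TYMP (−1.16 ± 0.12). The breakdown genes that rose were NT5C2, a cytosolic nucleotidase (0.56 ± 0.09, adjusted p = 8.37e-06), and DPYD, the first enzyme of pyrimidine breakdown (0.61 ± 0.10, adjusted p = 1.10e-05). Reads of NT5C2 can be shared with CNNM2, which overlaps 29.8% of its exons on the opposite strand. Concentrative transporters of the SLC28 family were too low to test.

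**Figure D4:**
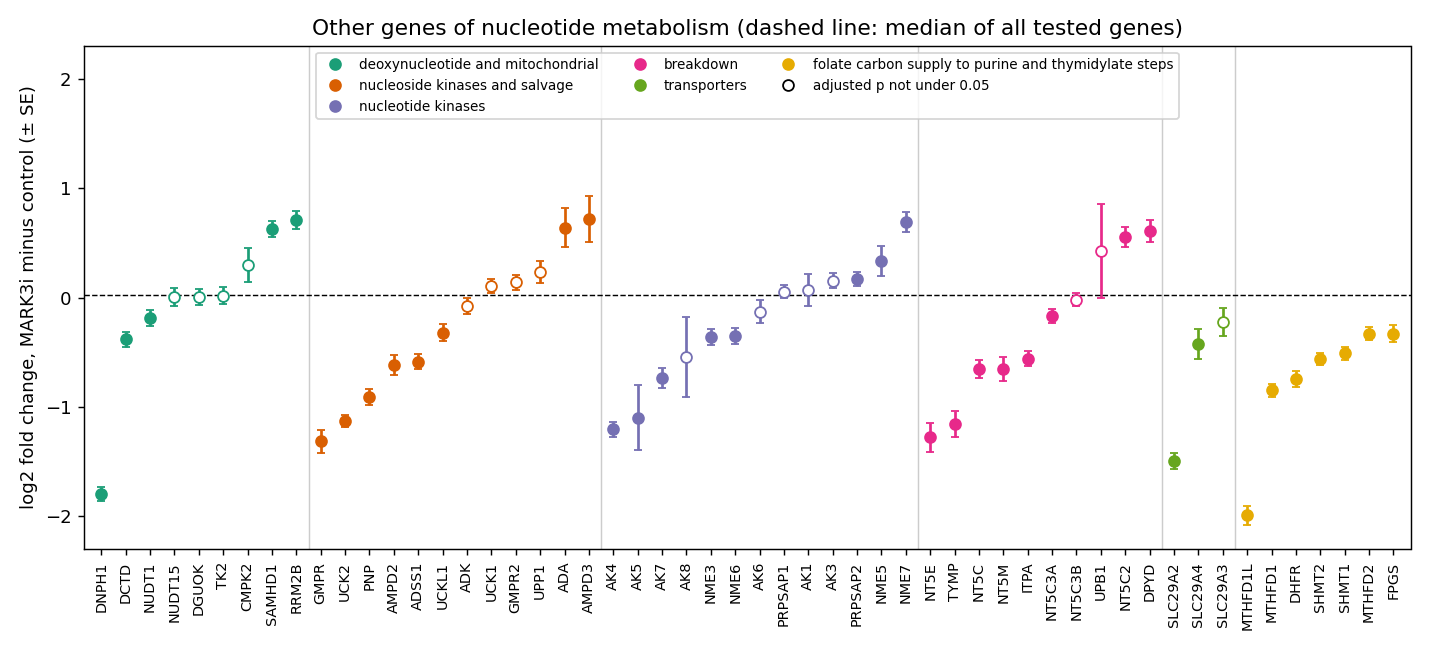
Log2 fold change (MARK3i minus control, bars ± SE, n = 4 per group) of 54 of the 55 tested genes of nucleotide metabolism outside the set of 33, grouped by role, with open symbols where the adjusted p was not under 0.05. All 7 folate genes lie below the dashed median of all tested genes, whereas RRM2B (0.71) and SAMHD1 (0.63) lie above it.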

How the data were processed

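Total RNA of 22Rv1 cells was sequenced in 4 control and 4 MARK3i libraries, grouped by the sample titles. The authors deposited whole-number counts per Ensembl gene, made with featureCounts after alignment to hg38, per the labels and the series text. Aligner, annotation, strand setting and versions: not given in the sources used here. Symbols, coordinates and exons were taken from GENCODE release 44, which held 58207 of the 58735 identifiers, and 0 lines named no gene.

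Counts were filtered with filterByExpr, scaled with TMM and tested with glmQLFit (robust) and glmQLFTest of edgeR 4.0.16 in R 4.3.3 on the group alone, with Benjamini-Hochberg adjustment over all 16452 tested genes and a threshold of 0.05. The SE is the absolute log2 fold change divided by the square root of F. The median SE was 0.0957. The script was tested on simulated data. Within groups every pair of libraries differed by more than sampling noise (chi-square per degree of freedom 1.71 to 9.47, against 35.0 to 46.4 between groups). Same-numbered replicates were not taken as pairs.

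The members, lists, pairs and alternatives were chosen with earlier results of these data known. All 33 members are named, and of other nucleotide genes up to 3 called genes per role and direction with the smallest p could be named, plus partners of members. Some items are not reported here. Other settings tried were scaling by RLE, the upper quartile or total counts, no filter, a filter of 1 CPM in 4 libraries, DESeq2 1.42.0, limma-voom (3.58.1), the replicate number as a block, GC offsets, thinning to the lowest total, each library left out, and an adjusted p under 0.01. For NME1 and NME2, their counts summed with those of their readthrough gene were also fitted. Fits against control replicates 1 and 2 or 3 and 4 only were chosen after seeing the data, since these pairs were closest to each other.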

Additional observations from a re-analysis of the deposited data

Results flagged for a closer look

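NME2 in control replicate 3 was at 4.76 CPM, and the nearest other control was at 4.12 CPM. This gap took 0.911 of the range of the 4 controls, above the Dixon limit of 0.829 for 4 samples. It was the single such value among 66 groups of 4 libraries examined over the 33 genes, where chance alone marks about 1 group in 20. NME2 rested on fewer than 100 counts per library.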

How the results depend on the processing

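Under all alternatives the number of members called lower stayed between 26 and 28, and 26 were called at an adjusted p under 0.01. Leaving out each library in turn gave 26 to 28. With total counts 2 members and 15 other nucleotide genes were called higher. Of 662 recomputed member results, 640 kept their direction and side of the threshold, 12 lost a call (all IMPDH2) and 8 gained a call. Another 2 turned sign, which were DCK with total counts (0.0295) and against control replicates 3 and 4 only (0.0142). The 662 include the summed counts of NME1, NME2 and their readthrough gene, set against NME1 and against NME2. Set against NME2, that sum is among the 8 gained calls and is not a call on NME2 counts alone. Same-numbered control and inhibitor libraries had correlated deviations of 0.131, −0.0875, −0.0533 and 0.0838, and not every sample correlated best with its own number. With the replicate number as a block 26 members were called lower, IMPDH2 not among them (adjusted p = 0.0564). For gene pair ratios the replicate block leaves an exact sign-flip p of 0.125 at best, which all 9 pairs reached: RRM2/RRM1 (−0.13), PRPS1/PRPS2 (0.28), IMPDH1/IMPDH2 (−0.90), CTPS1/CTPS2 (−1.45), NME1/NME2 (−1.52), RRM2/RRM2B (−1.16), TK1/TK2 (−1.03), SLC29A1/SLC29A2 (−0.26) and PPAT/PAICS (0.26). Leaving out 1 library moved SLC29A1/SLC29A2 between −0.30 and −0.21 and RRM2/RRM1 between −0.17 and −0.11. The cause of these changes was not tested. Depth limits ADSL, NME2 and NME4 most.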
